A study of Rattus norvegicus with 9 samples.

Results

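The genes described here are 55 genes of mitosis and the mitotic spindle, named by symbol for their function, with earlier results of these data known. A gene was measured where a feature of the array carried its symbol and no other, and where several features did, the one of highest mean level was used. By that rule 47 of the 55 genes were measured, of 14506 genes in all. Mki67, Kif18a, Cenpe, Cenpf, Ncapg, Ncaph, Espl1 and Anln had no such feature and are not analysed here. Ccnb2 and Nek2 had 2 features each, which differed by at most 0.08 on the log2 scale for Ccnb2 and by 0.0 for Nek2.

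Expression was measured on Affymetrix Rat Gene 1.0 ST arrays in 3 groups of cultured cells from adult Sprague Dawley rats, with 3 independent samples a group and 1 array a sample. The first group was Schwann cells of the sciatic nerve, taken from the nerve and grown in Schwann cell medium. The second was Schwann cells grown in the same medium from precursors of dorsal trunk skin (skin-derived precursors, SKPs), and the third was the SKPs, grown as floating spheres in proliferation-promoting conditions. Per the labels' protocols, both kinds of Schwann cell were passaged once and lysed at confluence, whereas the spheres were lysed after 1 or 2 passages. The labels name no allele, no added agent and no number of rats or pooling, and the label of the tissue reads dermis for all 9 arrays, the nerve cells included. Per their labels, the SKP arrays had been deposited before and were analysed again, so a difference between SKPs and either Schwann cell group cannot be told apart from a difference between those deposits, or between spheres and confluent layers.

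Cells enter mitosis when cyclin-dependent kinase 1, bound to A- and B-type cyclins, is activated, and they leave it when the anaphase-promoting complex marks cyclin B and securin for destruction. In between, kinesins and microtubule-binding proteins build the spindle, kinetochores attach chromosomes to it, and a checkpoint delays anaphase until every kinetochore is attached. Many of these genes are transcribed mainly in G2 phase and mitosis, so in a culture their summed level follows how many cells are dividing. Schwann cells divide readily in culture under mitogens such as neuregulin, and adult nerve Schwann cells are largely quiescent until injury. In RNA from whole cultures, fewer dividing cells and less transcript per dividing cell cannot be told apart.

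Values are log2 expression as deposited, and differences are log2 differences unless stated otherwise. A gene is called higher or lower where its adjusted p from limma, a linear model fitted across all genes and all 9 arrays, was under 0.05. The deposited values were not on a shared scale: the median over all genes was 7.29 to 7.35 in nerve arrays, 6.92 to 7.02 in SKP-derived arrays and 7.01 to 7.17 in SKP arrays. The median gene therefore differed by 0.46 for nerve cells minus SKPs, by -0.01 for SKP-derived cells minus SKPs and by -0.45 for SKP-derived minus nerve cells. After cyclic loess, a scaling that removes such shifts, these medians were 0.01, 0.02 and -0.01, and values after it are given where they differ. Schwann cell markers followed the Schwann cell labels. The mean of 6 measured Schwann cell genes of 8 was 11.52 to 11.7 in nerve arrays and 10.83 to 11.78 in SKP-derived arrays. It was 5.23 to 5.61 in SKP arrays. The 8 fibroblast and dermal mesenchyme markers averaged 8.63 to 10.13, 8.39 to 10.55 and 10.71 to 12.35 in the same groups. The series' design text calls the samples independent but does not say whether they came from separate rats. The p-values set a difference against the spread between samples within groups, pooled over the 3 groups, part of which may be technical.

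The group mean of mitosis genes was 7.77 in SKP-derived Schwann cells, 6.84 in SKPs and 6.54 in nerve Schwann cells. The SKP arrays were unequal, and arrays 1 and 2 alone had a mean of 7.49. The mean over the 47 genes was 6.87, 6.41 and 6.33 in nerve Schwann cell arrays 1 to 3, and 7.48, 7.54 and 8.28 in SKP-derived arrays 1 to 3. In SKP arrays 1 to 3 it was 7.76, 7.22 and 5.55. All 3 SKP-derived arrays lay above all 3 nerve arrays, while SKP array 1 lay within the range of the SKP-derived arrays, array 2 just under it, and array 3 below every other array of the study. After cyclic loess the means were 6.68, 6.18 and 6.1 in nerve Schwann cells, 7.68, 7.78 and 8.47 in SKP-derived cells and 7.86, 7.36 and 5.67 in SKPs, in the same order of groups.

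**Figure D1:**
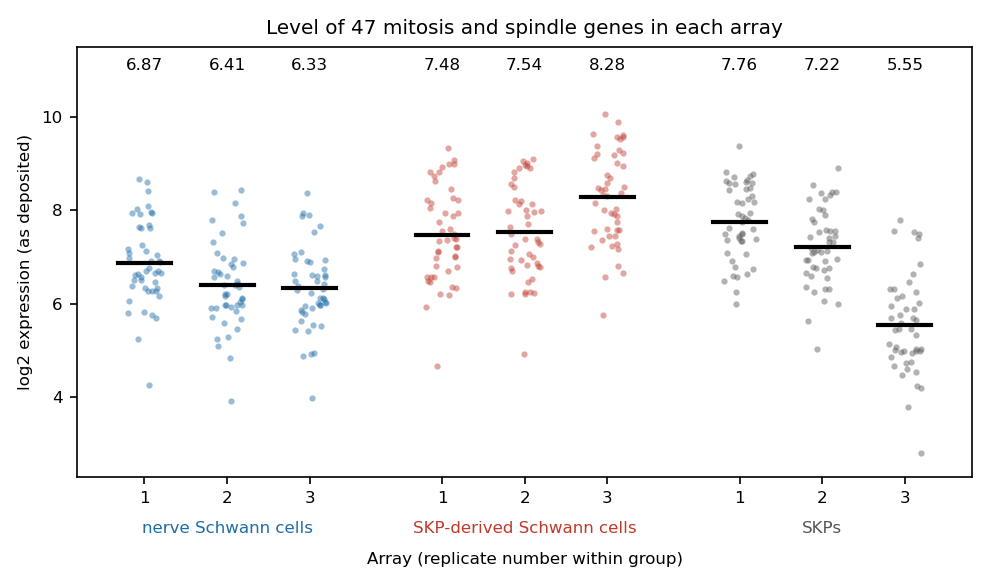
Log2 expression as deposited (y axis) of the 47 measured mitosis and spindle genes in each of the 9 arrays (x axis, replicate number within each group). Each point is 1 gene, the bar is the mean over the genes, and its value is printed above. The bars run from 6.33 to 6.87 for nerve cells and from 7.48 to 8.28 for SKP-derived cells, and stand at 7.76, 7.22 and 5.55 for SKPs.

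Most genes shared the array at which they were highest in a group. Nerve array 1 was the highest of its group for 40 of 47 genes (29.9% of all genes), SKP-derived array 3 for 45 of 47 (35.4% of all genes) and SKP array 1 for 45 of 47 (33.8% of all genes). SKP array 3 was the lowest of its group for 46 of 47 genes, against 35.5% of all genes, the exception being Incenp. The lowest array was divided in the other groups, with nerve array 3 lowest for 28 genes and array 2 for 19, and SKP-derived array 1 lowest for 27 and array 2 for 20. The spread inside groups was correspondingly wide. The median SD over 3 arrays was 0.34 for mitosis genes and 0.11 for all genes in nerve Schwann cells, 0.49 and 0.23 in SKP-derived cells, and 1.27 and 0.23 in SKPs.

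**Figure D2:**
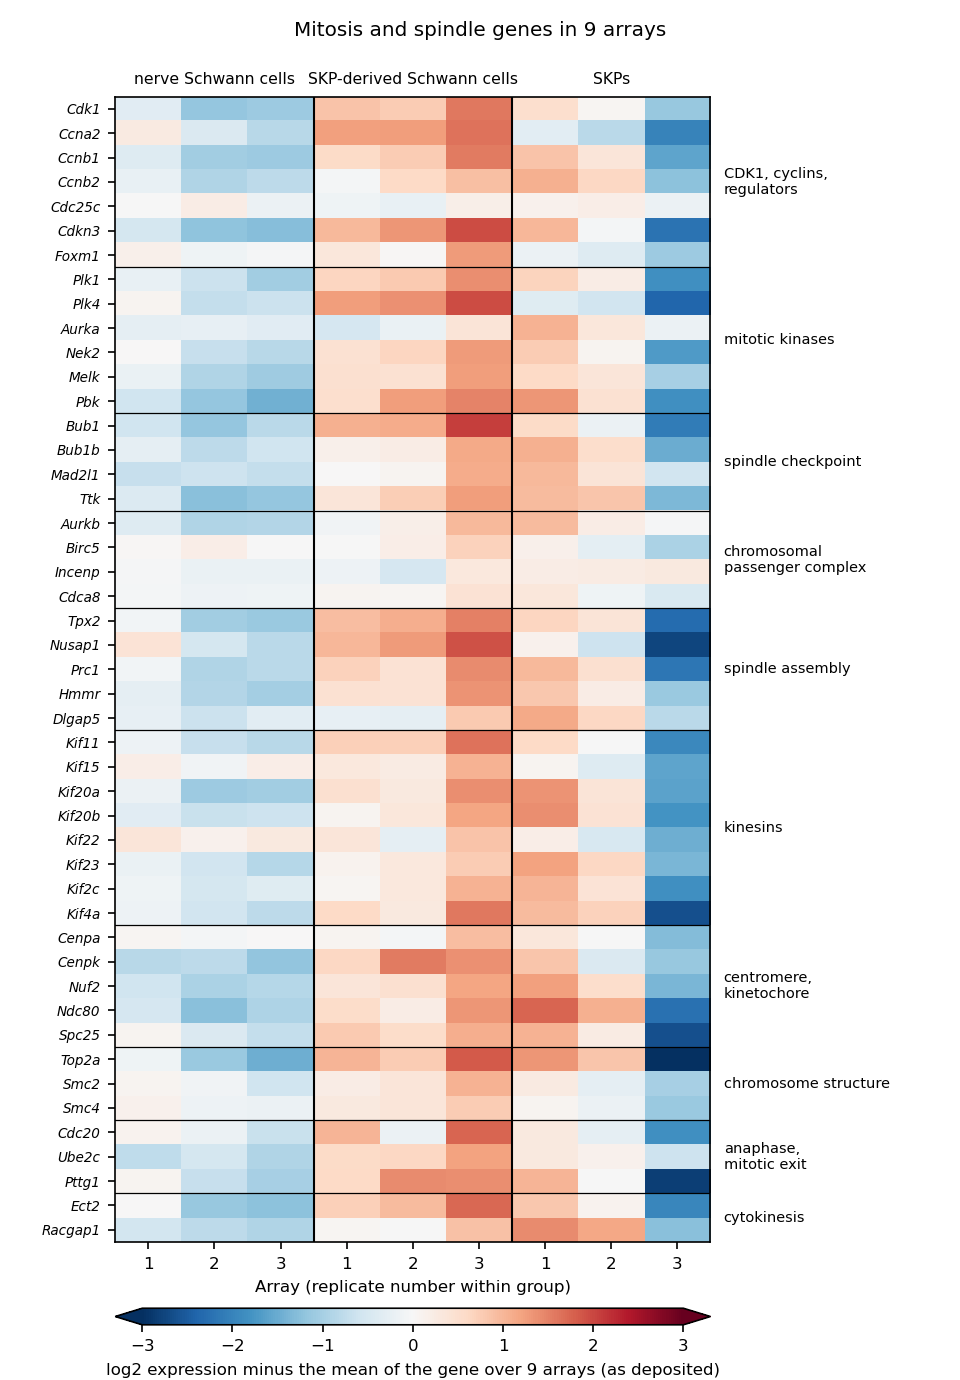
Log2 expression of each measured gene (rows, grouped by role) in each array (columns, 3 per group) minus the mean of that gene over the 9 arrays, as deposited. Red is above and blue below the gene's mean. SKP array 3 is blue for nearly all genes, the nerve arrays are mostly pale to blue, and SKP-derived array 3 is pale red to red.

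The comparison between the Schwann cell groups asks whether cells made from skin precursors differ from cells of the nerve after the same culture to confluence, and mitosis genes were among those that did. Of the 47 genes, 18 were called higher in SKP-derived than in nerve Schwann cells, where 1.33% of all genes were called higher and 42.3% lower. None of the 47 was called lower by limma, 0 also at an unadjusted p under 0.05. The median difference was 1.32, against -0.45 for all genes, and 46 of 47 differences were above 0. For 38 of the 47 genes every SKP-derived array lay above every nerve array, as was true of 3.19% of all genes, with 59.1% the other way round. After cyclic loess that number was 45 (16.9% of all genes) and the median difference 1.77, but 3 genes were called higher (0.779% of all genes, with 0.538% lower), namely Cdk1, Cenpk and Ube2c. At an unadjusted limma p under 0.05, 22 of the 47 genes were higher as deposited and 41 after cyclic loess. No share of all genes is given for that threshold.

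The number called depended on which arrays set the spread. The model shares 1 estimate of the spread over all groups, and SKP array 3, which has no part in this difference, widened it. The median standard error over the 47 genes was 0.55 with all arrays and 0.28 without SKP array 3. Without that array 36 genes were called higher (2.03% of all genes, with 48.1% lower), as were 36 in a fit of the 2 Schwann cell groups alone (2.04% of all genes, with 49% lower), the same 36 genes, among them all 18 of the fit with every array. With SKP array 3 in the fit, the count was 6 without nerve array 2, 6 without nerve array 3, 11 without SKP-derived array 2 and 6 without SKP-derived array 3, where 0.517%, 0.627%, 1.14% and 0.869% of all genes were called higher. Cyclic loess without SKP array 3, a setting added after the values were seen, called 36 (2.39% of all genes, with 1.56% lower). Median centring with all arrays called 10 (1.6% of all genes, with 2.07% lower).

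**Figure D3:**
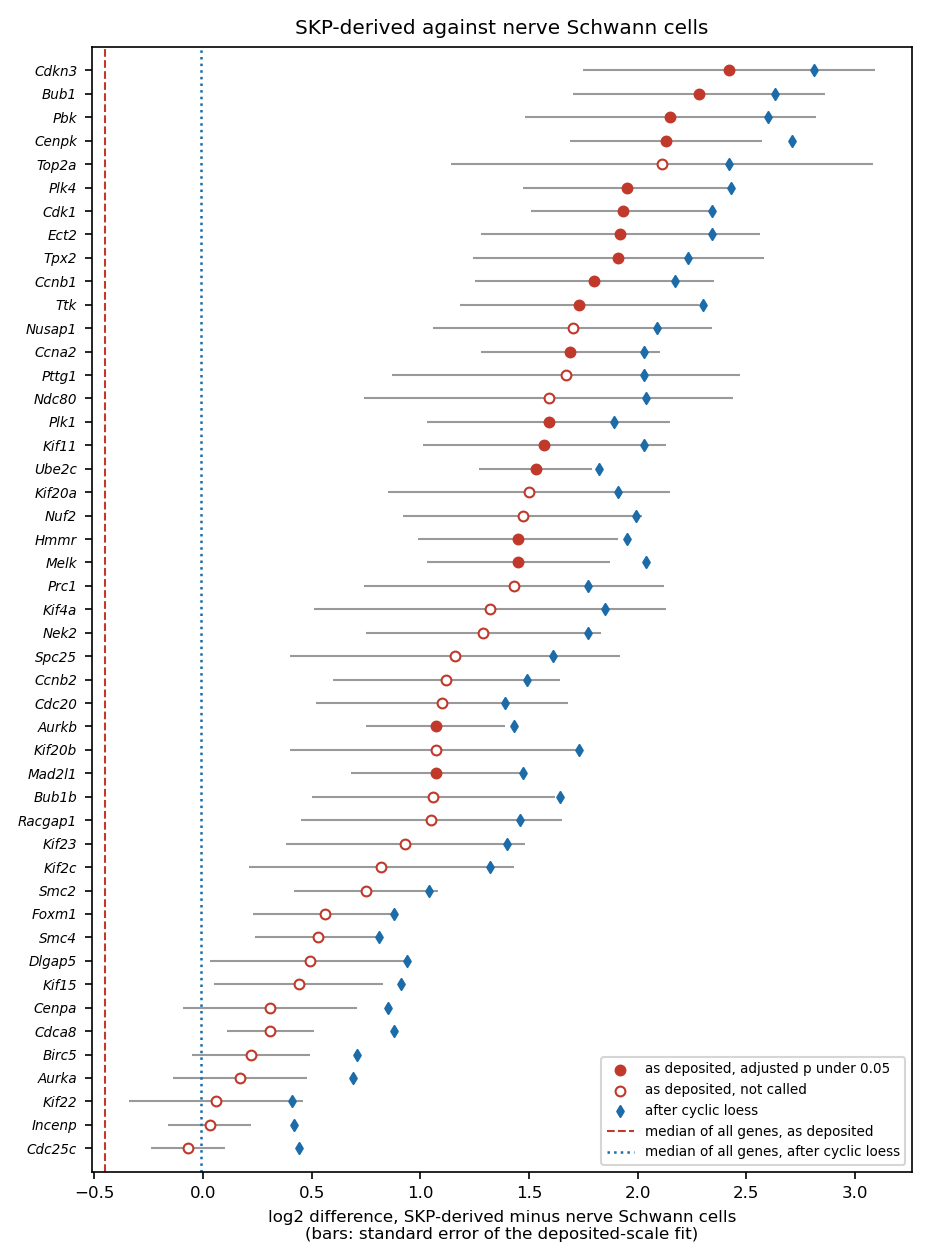
Log2 difference of SKP-derived minus nerve Schwann cells (x axis) for each of the 47 genes (y axis). Circles are the deposited scale with the standard error, filled where limma's adjusted p was under 0.05, diamonds are the values after cyclic loess, and the dashed and dotted lines mark the median of all genes on the same scales. Every gene lies to the right of the median of all genes, from Cdc25c at -0.07 to Cdkn3 at 2.42.

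Among CDK1, the cyclins and their regulators, 4 of 7 genes were higher in SKP-derived than in nerve Schwann cells. Cdk1, the kinase that drives entry into mitosis, was at 6.76, 5.94 and 6.02 in nerve Schwann cells, 7.95, 7.87 and 8.69 in SKP-derived cells and 7.6, 7.16 and 5.96 in SKPs. The 2 Schwann cell groups did not overlap, and SKP array 3 was at the nerve level. Cdk1 was 1.93 higher in SKP-derived cells (SE 0.42, 3.82-fold, limma adjusted p = 0.00701). Ccnb1, the main mitotic cyclin, was at 7.08, 6.42 and 6.38 in nerve cells, 8.05, 8.22 and 9.02 in SKP-derived cells and 8.31, 7.82 and 5.88 in SKPs. It rose by 1.8 (SE 0.55, limma adjusted p = 0.0272), and SKP arrays 1 and 2 were near the SKP-derived arrays while array 3 was the lowest of all 9. Cdkn3, a phosphatase that removes the activating phosphate from CDKs, had the largest difference of all 47 genes. It was at 6.71, 6.04 and 5.97 in nerve cells, 8.22, 8.57 and 9.2 in SKP-derived cells and 8.24, 7.19 and 5.02 in SKPs, and the difference between Schwann cell groups was 2.42 (SE 0.67, 5.36-fold, limma adjusted p = 0.0188). Ccna2, the cyclin of S and G2 phase, rose by 1.69 (limma adjusted p = 0.0115). Foxm1, a transcription factor of G2 and mitotic genes, was at 8.1, 7.8 and 7.91 in nerve cells, 8.27, 7.98 and 9.22 in SKP-derived cells and 7.75, 7.55 and 6.85 in SKPs. The Schwann cell groups overlapped and Foxm1 was not called (0.56, limma adjusted p = 0.186), nor were Ccnb2 (1.12, adjusted p = 0.107) and the phosphatase gene Cdc25c (-0.07, adjusted p = 0.734).

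Of the 6 other mitotic kinases, 4 were higher in SKP-derived cells. Plk1, which acts in centrosome maturation, spindle formation and mitotic exit, was at 7.95, 7.52 and 7.12 in nerve cells, 8.82, 8.96 and 9.57 in SKP-derived cells and 8.83, 8.39 and 6.32 in SKPs. Its groups of Schwann cells did not overlap, and it rose by 1.59 (SE 0.56, limma adjusted p = 0.0447). Plk4, which starts the duplication of centrioles, was at 6.71, 5.9 and 5.98 in nerve cells, 7.87, 7.98 and 8.58 in SKP-derived cells and 6.25, 6.05 and 4.24 in SKPs. Here SKP arrays 1 and 2 lay inside the range of nerve cells and not near the SKP-derived cells, and the rise over nerve cells was 1.95 (SE 0.48, limma adjusted p = 0.0123). Pbk, a kinase of dividing cells, rose by 2.15 and Melk, another, by 1.45. Nek2, a centrosomal kinase, differed by 1.29 and Aurka, which acts at spindle poles, by 0.17, and neither was called (limma adjusted p = 0.0794 and 0.667).

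The spindle checkpoint genes were higher at 3 of 4 members. Bub1, a checkpoint kinase of the kinetochore, was at 6.98, 6.4 and 6.75 in nerve cells, 8.63, 8.69 and 9.64 in SKP-derived cells and 8.15, 7.4 and 5.47 in SKPs. Every SKP-derived array was above all 6 others, and the difference from nerve cells was 2.28 (SE 0.58, 4.85-fold, limma adjusted p = 0.0137). Ttk, the kinase that starts checkpoint signalling, rose by 1.73 and Mad2l1, which inhibits Cdc20, by 1.07. The difference of Bub1b, another kinetochore component, was 1.06 and missed the threshold (limma adjusted p = 0.152).

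Of the chromosomal passenger complex, which corrects faulty attachments and then directs cytokinesis, 1 of 4 members was higher in SKP-derived than in nerve cells, with a median difference of 0.26. Its kinase gene Aurkb was at 7.14, 6.63 and 6.64 in nerve cells, 7.42, 7.7 and 8.5 in SKP-derived cells and 8.48, 7.76 and 7.49 in SKPs. All SKP-derived and SKP arrays of Aurkb lay above the nerve arrays, with a difference of 1.07 between Schwann cell groups (SE 0.32, limma adjusted p = 0.0255). Birc5, which encodes the subunit survivin, was at 6.63, 6.79 and 6.6 in nerve cells, 6.58, 6.79 and 7.29 in SKP-derived cells and 6.75, 6.31 and 5.66 in SKPs. Its Schwann cell groups overlapped (0.22, limma adjusted p = 0.532), as did those of the scaffold gene Incenp (0.03, adjusted p = 0.913). Cdca8, which encodes the subunit borealin, differed by 0.31 without overlap and was not called (adjusted p = 0.23). After cyclic loess the 4 differences were 1.43, 0.71, 0.42 and 0.88 in the order named.

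Spindle assembly factors were higher at 2 of 5 members. Tpx2, which activates Aurora A on the spindle, was at 7.94, 6.98 and 6.9 in nerve cells, 8.93, 9.1 and 9.53 in SKP-derived cells and 8.66, 8.4 and 5.7 in SKPs, and it rose by 1.91 (SE 0.67, limma adjusted p = 0.0441). Hmmr, a spindle-pole protein that also binds hyaluronan, rose by 1.45 (adjusted p = 0.0298). Nusap1, a microtubule-bundling protein, was at 7.63, 6.7 and 6.42 in nerve cells, 8.23, 8.5 and 9.13 in SKP-derived cells and 7.35, 6.6 and 4.48 in SKPs. Its Schwann cell groups did not overlap, yet the difference of 1.7 missed the threshold with all arrays (SE 0.64, limma adjusted p = 0.0569) and passed it without SKP array 3 (adjusted p = 0.00619). Prc1, which bundles the microtubules of the central spindle, differed by 1.43 and Dlgap5 by 0.49, and neither was called.

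Of 8 measured kinesins, motors that slide or shorten spindle microtubules or carry chromosomes along them, 1 was higher with all arrays in the fit and 6 without SKP array 3. Kif11, which pushes spindle poles apart, was at 6.65, 6.1 and 5.95 in nerve cells, 7.5, 7.5 and 8.43 in SKP-derived cells and 7.38, 6.77 and 4.86 in SKPs. It rose by 1.57 (SE 0.56, limma adjusted p = 0.0465). Kif22, a chromosome-bound motor, was at 7.96, 7.73 and 7.88 in nerve cells, 7.95, 7.33 and 8.46 in SKP-derived cells and 7.8, 7.11 and 6.13 in SKPs. The Schwann cell groups overlapped completely for Kif22 (0.06, adjusted p = 0.912). The other 6 kinesin genes, Kif15, Kif20a, Kif20b, Kif23, Kif2c and Kif4a, differed by 0.44 to 1.5, each with all SKP-derived arrays above all nerve arrays.

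Centromere and kinetochore genes were higher at 1 of 5 measured members, and at 4 without SKP array 3. Cenpk, a subunit of the constitutive centromere network, was at 5.24, 5.3 and 4.89 in nerve cells, 6.7, 7.64 and 7.46 in SKP-derived cells and 6.91, 5.64 and 4.94 in SKPs. The rise was 2.13 (SE 0.44, 4.37-fold, limma adjusted p = 0.00616). Ndc80, a subunit of the complex that holds microtubules at the kinetochore, was at 6.34, 5.58 and 5.92 in nerve cells, 7.39, 7.06 and 8.16 in SKP-derived cells and 8.58, 7.91 and 4.61 in SKPs. The Schwann cell groups did not overlap for Ndc80, but SKP arrays 1 and 3 were 3.97 apart and the difference of 1.59 was not called (SE 0.85, limma adjusted p = 0.15, and 0.00507 without SKP array 3). Nuf2 and Spc25, which encode other subunits of that complex, differed by 1.47 and 1.16, and the centromeric histone gene Cenpa by 0.31 with overlap.

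Of genes for chromosome structure 0 of 3 were called with all arrays and 3 without SKP array 3, of mitotic exit 1 of 3 and of cytokinesis 1 of 2. Top2a, the topoisomerase that untangles sister chromatids, was at 7.93, 6.95 and 6.61 in nerve cells, 9.09, 8.82 and 9.9 in SKP-derived cells and 9.39, 8.91 and 5 in SKPs. The difference of 2.11 between Schwann cell groups was among the largest and was not called with all arrays (SE 0.97, limma adjusted p = 0.104, and 0.00357 without SKP array 3). The condensin gene Smc4 was at 8.68, 8.4 and 8.37 in nerve cells, 8.83, 8.9 and 9.3 in SKP-derived cells and 8.62, 8.38 and 7.42 in SKPs, and differed by 0.53 (adjusted p = 0.156), as its partner gene Smc2 did by 0.75 (adjusted p = 0.0945). Ube2c, the ubiquitin-conjugating enzyme of the anaphase-promoting complex, had a small spread. It was at 7.65, 7.89 and 7.53 in nerve cells, 8.99, 9.05 and 9.62 in SKP-derived cells and 8.72, 8.55 and 7.79 in SKPs, with a rise of 1.53 (SE 0.26, limma adjusted p = 0.00331). Pttg1, which encodes securin, was at 7.63, 6.87 and 6.57 in nerve cells, 8.16, 8.98 and 8.95 in SKP-derived cells and 8.59, 7.55 and 4.73 in SKPs (1.67, SE 0.8, adjusted p = 0.116). Cdc20, the activator of the anaphase-promoting complex, differed by 1.1 with overlap. Ect2, the exchange factor that switches on RhoA at the division plane, was at 7.05, 5.9 and 5.79 in nerve cells, 7.75, 7.97 and 8.76 in SKP-derived cells and 7.84, 7.14 and 5.08 in SKPs. It rose by 1.92 (SE 0.64, limma adjusted p = 0.0373). Racgap1, its partner at the central spindle, was at 6.61, 6.36 and 6.24 in nerve cells, 7.22, 7.14 and 8.02 in SKP-derived cells and 8.57, 8.32 and 5.89 in SKPs, and differed by 1.05 (adjusted p = 0.175). For Racgap1 the order was SKP arrays 1 and 2, then the SKP-derived arrays, then the nerve arrays, then SKP array 3.

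SKP array 3 was measured well below SKP arrays 1 and 2 for most of these genes. It was at least 1 log2 unit below the mean of arrays 1 and 2 for 38 of 47 genes (4.73% of all genes), at least 2 units below for 25 (1.23% of all genes) and at least 3 units below for 5 (0.283% of all genes). Those 5 were Top2a (-4.15), Ndc80 (-3.64), Kif4a (-3.44), Pttg1 (-3.34) and Spc25 (-3.28). The median over the 47 genes was -2.12, against 0.01 over all genes. The other 9 genes were Incenp (0.04), Cdc25c (-0.33), Cdca8 (-0.55), Aurkb (-0.63), Foxm1 (-0.8), Ube2c (-0.84), Birc5 (-0.87), Aurka (-0.88) and Smc2 (-0.99), among them all 4 members of the passenger complex.

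Other gene lists moved with that array and with SKP array 1, and their part in the result was not tested. After cyclic loess, the mean of 19 measured hypoxia and glycolysis genes of 20 was 10.06 and 10.13 in SKP arrays 1 and 2, 11.25 in array 3, and 8.8 to 9.17 in the Schwann cell arrays. The mean of all 8 fibroblast and dermal mesenchyme markers was 12.46, 12.45 and 10.78 in SKP arrays 1 to 3. That of all 13 macrophage markers was 8.2, 6.45 and 5.89 in the same arrays, 5.71 to 5.78 in nerve cells and 5.54 to 5.71 in SKP-derived cells. In SKP-derived arrays 1 to 3, of which array 3 was highest for mitosis genes, the fibroblast markers were at 8.4, 10.66 and 9.33. They were at a similar level in nerve arrays 1 to 3, at 9.1, 9.96 and 8.41. Melanocyte markers (4 of 6 measured) were at 5.48 to 5.61 in nerve arrays, 6.97, 6.47 and 6.06 in SKP-derived arrays 1 to 3 and 6.16, 6.46 and 7.03 in SKP arrays 1 to 3. On this scale the Schwann cell groups did not overlap, and SKP array 3 was the highest of its group. As deposited the Schwann cell groups did overlap, at 5.77 to 5.89 in nerve arrays and 5.82 to 6.76 in SKP-derived arrays. Endothelial (6 of 6 measured), keratinocyte (4 of 6) and smooth muscle markers (5 of 5) lay between 5.22 and 6.75 in all arrays. These log2 values have no true zero, so no marker could be called absent.

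**Figure D4:**
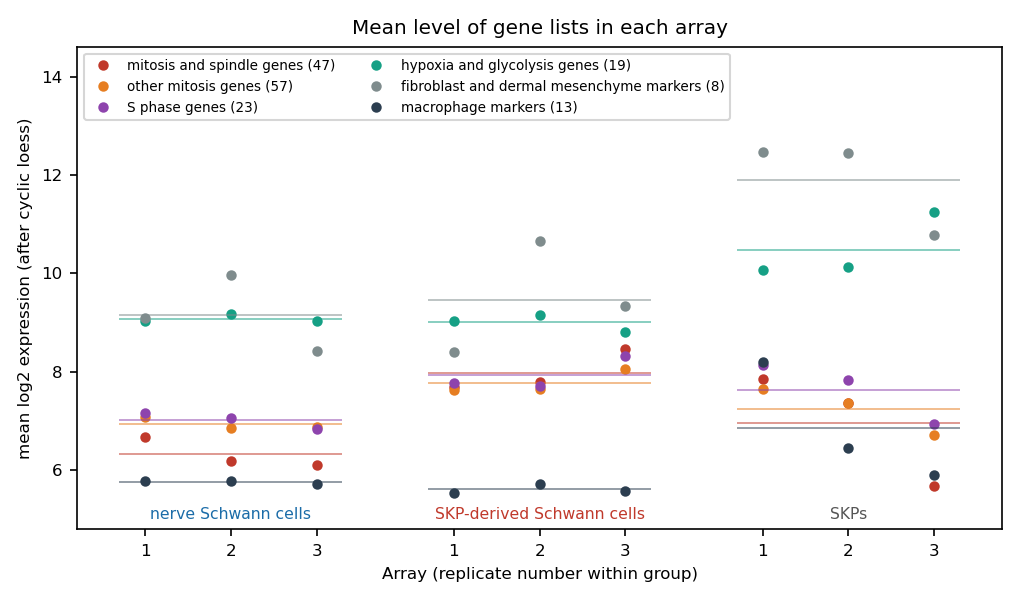
Mean log2 expression after cyclic loess (y axis) of 6 gene lists in each array (x axis), with the number of measured genes in the key. Points are arrays and lines are group means. In SKP array 3 the mitosis genes are at 5.67, S phase genes at 6.93 and hypoxia and glycolysis genes at 11.25, against 7.36 to 7.86, 7.84 to 8.13 and 10.06 to 10.13 in the other SKP arrays.

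Against all 3 SKP arrays, few mitosis genes were called different in nerve Schwann cells. Of the 47 genes 2 were lower, Aurkb (-1.11, SE 0.32, limma adjusted p = 0.0134) and Ube2c (-0.66, SE 0.26, adjusted p = 0.0486), where 14.9% of all genes were called lower and 49.7% higher. None was called higher by limma, 0 also at an unadjusted p under 0.05. The median difference was -0.39 against 0.46 for all genes. Every nerve array lay below every SKP array for 4 genes, Aurka, Mad2l1, Aurkb and Incenp (17.8% of all genes), and above for 1, Foxm1 (55.8% of all genes). The count of lower genes was 1 without any single nerve array, without SKP-derived array 1, and without SKP array 1 or 2, and 4 without SKP-derived array 3, where 11.7% to 15.1% of all genes were called lower. After cyclic loess 10 genes were lower (23.6% of all genes, with 24.2% higher), Aurkb, Ube2c, Aurka, Cdc25c, Melk, Mad2l1, Ttk, Incenp, Cdca8 and Cenpk, with a median of -0.7. Median centring called 5 lower (20.1% of all genes, with 34.7% higher), and a fit of the 2 groups alone 2 (15.6%, with 51.4% higher).

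Without SKP array 3, 32 of the 47 genes were lower in nerve cells than in SKPs (15.3% of all genes, with 49% higher) and 0 were higher by limma (0 at an unadjusted p under 0.05), with a median difference of -1.13. All 4 checkpoint genes, 5 of 6 kinases, 5 of 8 kinesins, 4 of 5 spindle assembly factors and 4 of 5 kinetochore genes were among them. The largest falls were Ndc80 (-2.3, limma adjusted p = 0.000682), Racgap1 (-2.04, 0.000297), Top2a (-1.99, 0.00317), Pbk (-1.96, 0.00189) and Ttk (-1.83, 0.00103). Pttg1 differed by 0.07 with all arrays and by -1.05 without SKP array 3 (adjusted p = 0.0465). Ccna2, Foxm1, Plk4, Birc5, Kif15 and Kif22 were at 0.05 to 0.4 and not called. With cyclic loess as well, 36 were lower (24.7% of all genes, with 24.2% higher). Without SKP array 1 in its place, 1 gene was lower and 4 were higher (13.4% and 47.9% of all genes), and the mean difference over the 47 genes turned from -0.31 to 0.15.

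SKP-derived Schwann cells had 10 of 47 genes higher than SKPs, which is 21.3% of them where 19.3% of all genes were higher and 22.3% lower. None was called lower by limma, 0 also at an unadjusted p under 0.05, and the median difference was 0.88 against -0.01 for all genes. The 10 genes were Plk4 (2.63, SE 0.48, limma adjusted p = 0.00212), Nusap1 (2.48), Ccna2 (2.41), Bub1 (1.98), Cenpk (1.44), Cdk1 (1.26), Kif15 (1.15), Foxm1 (1.11), Smc4 (0.87) and Ube2c (0.87). Aurkb was level with SKPs (-0.04, adjusted p = 0.939), as was Racgap1 (-0.14, adjusted p = 0.873), although a missed threshold does not show that they were equal. This comparison and that of nerve cells share the same 3 SKP arrays.

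Without SKP array 3, 4 genes remained higher in SKP-derived cells than in SKPs (18.7% of all genes), and they were Plk4 (2.0, limma adjusted p = 0.00073), Ccna2 (1.92, 0.0013), Nusap1 (1.64, 0.0105) and Bub1 (1.21, 0.0213). Racgap1 (-0.99, 0.0161) and Aurka (-0.8, 0.0465) were then lower (22.2% of all genes), and the median over the 47 genes was 0.22. Against SKP arrays 1 and 2 alone, then, 31 differences were above 0 and 16 below. The count of higher genes was 21 without SKP array 1 (16.6% of all genes, with 19.6% lower), where the 10 genes were all kept, and 3 without SKP-derived array 3 (18.5% of all genes). Every SKP-derived array lay above every SKP array for 11 genes (22.1% of all genes) and below for 0 (25.8%). After cyclic loess 14 genes were higher and 0 lower (21.1% and 21.5% of all genes), after median centring 16 and 0 (22.6% and 18.2%), and in a fit of the 2 groups alone 4 and 0 (14.2% and 17.2%). Cyclic loess without SKP array 3 called 10 higher and 1 lower (20.9% and 22.1% of all genes), 9 of the higher ones among the 10 of the fit with all arrays.

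**Figure D5:**
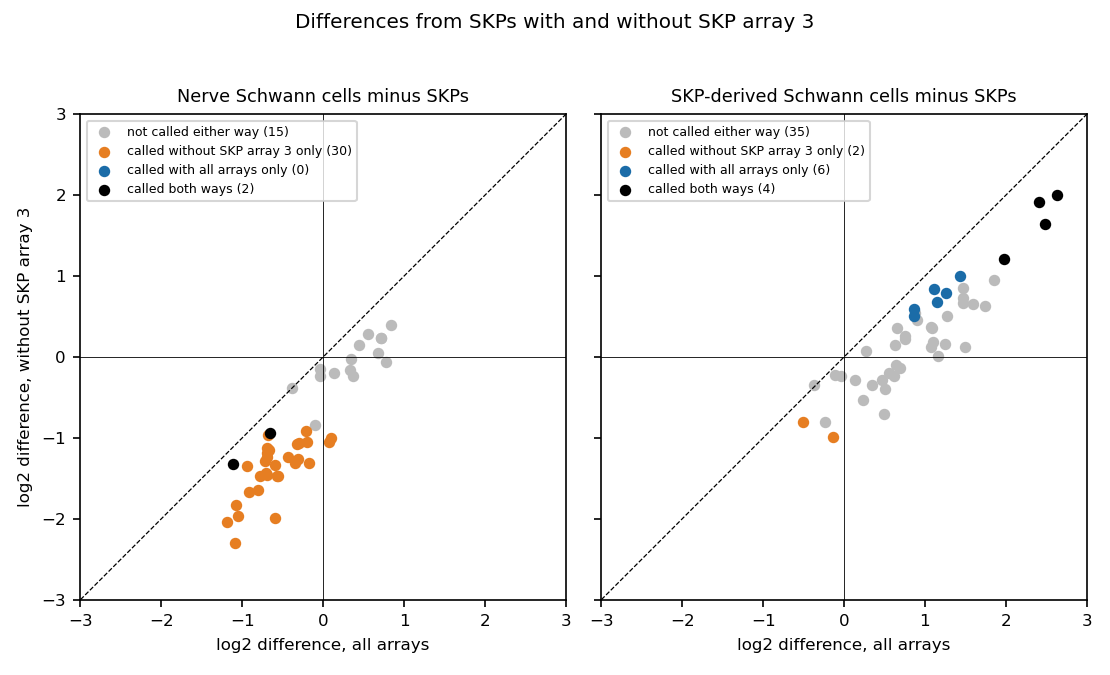
Log2 difference from SKPs of each of the 47 genes with all arrays (x axis) and without SKP array 3 (y axis), for nerve Schwann cells (left) and SKP-derived Schwann cells (right). The dashed line marks equal values and colours show where limma's adjusted p was under 0.05. On the left 30 genes are called only without SKP array 3 and 2 both ways; on the right 6 are called only with all arrays, 4 both ways and 2 only without array 3.

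Another list held 79 further mitosis genes, of which 57 were measured. In SKP-derived against nerve Schwann cells 10 were higher and 4 lower (1.33% and 42.3% of all genes), with a median of 0.51, and after cyclic loess 4 and 0 (0.779% and 0.538%), with a median of 0.93. Without SKP array 3 the counts were 22 and 4 (2.03% and 48.1%), and with cyclic loess as well 27 and 0 (2.39% and 1.56%). Cenpi, a centromere network gene, rose by 1.72 (limma adjusted p = 0.0113) and Cep55, which acts in the final cut between daughter cells, by 1.45 (adjusted p = 0.0356, and 0.0764 after cyclic loess). Numa1, a spindle-pole gene, fell by 0.76 and Cks2, a CDK subunit, fell by 0.7, but neither was called after cyclic loess (-0.46 and -0.04). Against SKPs, nerve cells had 9 higher and 6 lower (49.7% and 14.9% of all genes). The counts were 6 and 9 after cyclic loess (24.2% and 23.6%) and 8 and 17 without SKP array 3 (49% and 15.3%). With all arrays as deposited, Cks2 was at 1.57, Zwint at 1.19, Mis12 at -1.66 and Wee1, the inhibitory kinase of CDK1, at -1.27. SKP-derived cells had 19 higher and 4 lower (19.3% and 22.3% of all genes), with Ska3 at 2.02 and Kif18b at 1.8 on the higher side and Mis12 at -1.77 and the checkpoint gene Zw10 at -1.09 on the lower. Of 23 measured S phase genes of 26, 4 were higher and 0 lower in SKP-derived than in nerve cells (1.33% and 42.3% of all genes), with a median of 0.56. That count was 1 higher after cyclic loess (0.779% of all genes) and 10 higher without SKP array 3 (2.03% of all genes).

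Promoter sequence was examined because the genes moved together across arrays. G2 and mitotic genes are known for a cell cycle homology region, TTTGAA or TTCGAA, near the start of transcription, bound by the MuvB core, and for CCAAT boxes bound by NF-Y. RefSeq promoter sequences of build GRCr8, from 250 bases before to 50 bases after the start, were matched for 47 of the 55 genes, of which 39 were measured. TTTGAA was found on either strand in 34 of the 47 promoters (72.3%), against 18.1% of 27457 promoters, 1 per gene. CCAAT was found in 34 as well (72.3% against 37.7%), TTCGAA in 2 (4.26% against 1.77%), and TTTGAA and CCAAT together in 27 (57.4% against 7.25%). In the last 100 bases before the start, TTTGAA lay in 19 of 47 (40.4% against 5.68%) and CCAAT in 27 (57.4% against 17.3%). Among the 39 measured genes, TTTGAA was in 8 of the 13 called higher in SKP-derived than in nerve Schwann cells and in 21 of the 26 not called. In the last 100 bases before the start it was in 2 of those 13, Cdk1 and Hmmr, and in 13 of the 26. A match is a string of letters and not a measured site, and these arrays hold no binding data.

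The 100 bases before the start are shown for 6 genes that illustrate how the 2 motifs are placed, 5 with both and Ccnb1 with CCAAT alone. They are written 5′ to 3′ on the strand of the gene and end at the base before the start, with matches to both motifs, or to their reverse complements, in capitals.
Cdk1 chr20:19265193-19265292 plus strand: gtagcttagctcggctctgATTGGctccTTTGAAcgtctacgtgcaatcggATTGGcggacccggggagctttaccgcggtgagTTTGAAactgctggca
Hmmr chr10:25665216-25665315 minus strand: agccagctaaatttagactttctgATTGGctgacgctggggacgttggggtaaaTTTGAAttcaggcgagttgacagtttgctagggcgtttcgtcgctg
Cdc20 chr5:137255800-137255899 minus strand: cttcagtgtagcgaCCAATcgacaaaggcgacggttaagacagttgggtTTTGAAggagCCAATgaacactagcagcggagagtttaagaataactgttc
Prc1 chr1:143659381-143659480 plus strand: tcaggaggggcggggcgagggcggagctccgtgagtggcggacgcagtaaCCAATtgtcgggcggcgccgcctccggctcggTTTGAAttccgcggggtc
Top2a chr10:84473094-84473193 minus strand: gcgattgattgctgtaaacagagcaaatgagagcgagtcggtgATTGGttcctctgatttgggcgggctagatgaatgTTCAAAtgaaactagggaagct
Ccnb1 chr2:33655226-33655325 minus strand: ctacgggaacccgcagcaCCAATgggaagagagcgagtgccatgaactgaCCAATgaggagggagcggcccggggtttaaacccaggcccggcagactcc
With all arrays in the fit, Cdk1, Hmmr and Ccnb1 were called higher in SKP-derived than in nerve Schwann cells. Cdc20, Prc1 and Top2a were not called in that fit. Without SKP array 3, Prc1 and Top2a were called higher as well (limma adjusted p = 0.00618 and 0.00357), and Cdc20 was not (0.0627). Positions are counted back from the start. Read 5′ to 3′, the first TTTGAA begins at base -72 in Cdk1, -46 in Hmmr, -51 in Cdc20 and -18 in Prc1. Its reverse complement begins at -22 in Top2a, and Cdk1 has another TTTGAA at -16, nearer the start. Within these 100 bases a CCAAT match in either orientation precedes each first match. The first CCAAT match begins at -81, -76, -86, -50 and -57 in Cdk1, Hmmr, Cdc20, Prc1 and Top2a, and at -82 in Ccnb1. That order does not hold for every gene. In Cdca8, not shown, TTTGAA begins at -94 and the only CCAAT match of these 100 bases at -89.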

How the data were processed

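The authors deposited log2 values of 29214 features on 9 arrays. The submitters' processing notes name RMA and Affymetrix Expression Console. RMA corrects background, normalises between arrays and summarises probes. Not given in the sources used here are the versions, the build and whether all arrays were normalised jointly. By the array's annotation 15310 features have 1 gene symbol, 323 several and 13581 none. The feature with the highest mean stood for a gene, which left 14506 genes.

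Group means were fitted to all 9 arrays with limma 3.58.1 (lmFit and eBayes) in R 4.3.3. Every adjusted p is from limma with Benjamini-Hochberg adjustment over all genes, called under 0.05 with no fold minimum. The fit was tested on simulated data with known changes between the Schwann cell groups. It recovered 55% of log2 changes of 1 and 92% of changes of 2, with 3 false calls. Each simulated gene had the same spread in every array, so a shift shared by many genes, as in SKP array 3, was not covered. Values of all 9 arrays are given for Cdk1, Ccnb1, Top2a, Aurkb, Birc5 and Plk1 (and were to be for Mki67, which was not measured) and, in each role, for the gene with the highest mean and the gene with the largest difference in any comparison. Other genes are given by range or count, and of the other mitosis genes the 2 with the largest rise and fall per comparison. The members and lists were chosen with earlier results of these data known. The number of arrays limits the precision.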

Additional observations from a re-analysis of the deposited data

How the results depend on the processing

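The direction of the mean difference over the 47 genes was kept under the scalings and feature rules tried, and under each left-out array except SKP array 1 for nerve cells against SKPs (0.15, against -0.31). The range over left-out arrays was -0.95 to 0.15 for nerve cells minus SKPs, 0.28 to 1.38 for SKP-derived cells minus SKPs and 0.97 to 1.4 for SKP-derived minus nerve cells. Between Schwann cell groups the mean difference of 1.23 was 1.66 after cyclic loess, 1.7 after quantile normalisation and 1.64 with cyclic loess and no SKP array 3. Nerve cells minus SKPs gave -1.25 with cyclic loess and no SKP array 3, and -1.17 with median centring and no SKP array 3.

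Counts of called genes moved more. Over left-out arrays, 0.517% to 2.03% of all genes were higher in SKP-derived than in nerve cells. Against SKPs, 15.5% to 18.7% were higher and 18% to 22.2% lower in SKP-derived cells. In nerve cells 43.6% to 51.6% were higher and 11.7% to 15.8% lower. Shares for median centring with all arrays, for cyclic loess with or without SKP array 3 and for the 2-group fit are given above. No share is given for the other settings, so their counts cannot be read against all genes. Genes higher in SKP-derived than in nerve cells numbered 18, and 10 after median centring, 3 after cyclic loess, 3 among genes above the median level (20 of the 47 tested), 36 in a fit of the 2 groups, 35 with array weights, 3 at a threshold of 0.01, 6 to 36 over left-out arrays, and 36 and 37 without SKP array 3 after cyclic loess and median centring. Genes higher in SKP-derived cells than in SKPs numbered 10, and 16 after median centring, 16 after quantile normalisation, 4 in the 2-group fit, 6 with array weights, 2 at 0.01 and 3 to 21 over left-out arrays. Genes lower there numbered 0, and 1 with array weights, 1 each without SKP array 3 after either scaling, and 0 to 2 over left-out arrays. Genes lower in nerve cells than in SKPs numbered 2, and 5 after median centring, 10 after cyclic loess, 15 after quantile normalisation, 1 among genes above the median level, 19 with array weights, 0 at 0.01, 1 to 32 over left-out arrays, and 36 and 35 without SKP array 3 after cyclic loess and median centring. Genes higher there numbered 0, and 1 with array weights and 0 to 4 over left-out arrays. The cause of these moves was not tested, beyond the smaller standard error without SKP array 3 given above. Between Schwann cell groups the median standard error was 0.55 both as deposited and after cyclic loess. The adjustment is over all genes, of which 1.33% were higher and 42.3% lower as deposited, and 0.779% and 0.538% after cyclic loess. For Pttg1 in nerve cells minus SKPs, the difference of 0.07 turned to -1.05 without SKP array 3 (-1.05 to 0.88 over left-out arrays), and to -1.18 and -1.26 with cyclic loess or median centring as well; the 2 settings that combine a scaling with leaving out SKP array 3 were chosen after seeing the data.

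The replicate numbers in the labels are not stated to mark a shared animal or day, so same-numbered arrays were not treated as pairs. Over all genes, deviations of same-numbered arrays of different groups had correlations of -0.124 to 0.289, and those of different-numbered arrays -0.265 to 0.18. Between nerve and SKP-derived arrays the same-numbered correlations were 0.0725, 0.289 and 0.148. Whether same-numbered arrays share a factor was not tested. With the number as a replicate block, the counts were 16 higher between Schwann cell groups (of the 18) and 1 lower in nerve cells than in SKPs (of the 2).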
